A study of Mus musculus with 30 samples.

Results

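The sites described here are stretches of chromatin that opened when mouse CD4 T cells were activated and that were about as accessible in activated cells lacking protein kinase A (PKA) as in activated control (WT) cells. They were chosen by measured ATAC-seq values. A site was taken where the mean CPM (a site's count scaled to the library's total in all sites) of activated WT cells exceeded that of naive WT cells by at least 2 on the log2(CPM + 0.5) scale, and where activated knockout (KO) cells differed from activated WT cells by less than 0.5 on that scale. The rule found 15660 member sites of 110808, or 14.1%, and they made up 58.0% of the 26979 sites that opened in WT cells. Of the other opened sites, 5314 were lower in activated KO by 0.5 to 1, 3841 were lower by at least 1, and 2164 were higher by at least 0.5. These values define the members and are given without a test.

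The study concerned PKA and its target CREB in the IL-12 responsiveness and Th1 fate of CD4 T cells. Cells came from spleen and lymph nodes of WT mice and of mice labelled as PKA KO, were enriched by a CD4 kit and sorted as naive cells. They were profiled directly (naive), after 3 days of stimulation by antibodies to CD3 and CD28 (activated), or, for RNA alone, after a 3-day rest in IL-7 and 4 hours of forskolin at 1 ug/mL, a drug that raises cyclic AMP. Each genotype and state had 3 ATAC-seq and 3 RNA-seq libraries, and the forskolin state had 3 RNA-seq libraries per genotype. The labels do not give the allele, the way PKA was removed, the age of the mice, or whether replicate libraries derive from different mice, and all p-values here therefore describe library-to-library spread only.

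ATAC-seq marks chromatin into which a transposase can insert, and such open stretches hold most promoters and enhancers in use. A T cell that meets antigen opens many sites within days through factors such as AP-1, NFAT and NF-kappaB downstream of its receptor. PKA is the main kinase of cyclic AMP. It phosphorylates CREB, which binds the cyclic AMP response element (CRE), and in T cells it is known both for restraint of receptor signalling and for CREB-driven transcription.

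ATAC libraries held 18522373 to 25318916 counts in sites, and RNA libraries of naive and activated cells 8272201 to 11950488 counts in named genes. Prkaca, the gene of a catalytic subunit of PKA, stood at 36.4, 41.1 and 32.1 CPM in naive WT RNA and at 2.08, 2.55 and 2.65 CPM in naive KO. In activated cells it stood at 42.0, 53.3 and 48.4 CPM in WT and at 0.867, 1.38 and 0.926 CPM in KO, a log2 fold change of -5.49 ± 0.18 (SE, edgeR quasi-likelihood test, adjusted p = 6.05e-13). CD4 T cell markers were present in all libraries, at a summed 4622 to 5339 CPM over 7 genes in naive cells, 2612 to 2757 in activated WT and 2292 to 2359 in activated KO, where 2 of 7 were called lower than in WT. B cell markers summed to 322 to 333 CPM in naive WT, 317 to 331 in naive KO, 103 to 127 in activated WT and 161 to 189 in activated KO, and 2 of 3 tested markers of the 7 were higher in activated KO. The part of these shifts in the RNA results was not tested. Naive WT library 3 had 2.73% of member sites at 0 counts, against 13.8% and 12.7% in naive WT libraries 1 and 2. Naive KO libraries had 7.06%, 3.31% and 2.78%, so WT library 3 differed from the other WT libraries but not from KO library 3.

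Peak sequences were not analysed here. Promoter windows of RefSeq (GRCm38.p6, the build of the mm10 coordinates of the sites), each from 250 bases before a gene's start to 50 after it, show what a member over a promoter covers. A total of 706 members lay over such a window. The 8 windows below lie under members next to genes of T cell activation, cytokines, metabolism or cytotoxicity. They were picked after their motif matches were known, to show both matches and their absence. Capitals mark the AP-1 pattern TGANTCA and the CRE pattern TGACGTCA, searched on both strands. Neither pattern contains the other, and a match is a description of letters, not a bound site.
Tnfrsf9, chr4:150927749-150928048, plus strand: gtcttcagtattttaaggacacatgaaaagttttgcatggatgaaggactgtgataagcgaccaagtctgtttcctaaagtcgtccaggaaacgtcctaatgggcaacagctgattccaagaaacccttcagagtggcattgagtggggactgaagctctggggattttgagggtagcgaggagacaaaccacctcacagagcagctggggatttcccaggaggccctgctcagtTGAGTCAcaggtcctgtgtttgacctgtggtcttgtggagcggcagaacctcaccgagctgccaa
Cd80, chr16:38458683-38458982, plus strand: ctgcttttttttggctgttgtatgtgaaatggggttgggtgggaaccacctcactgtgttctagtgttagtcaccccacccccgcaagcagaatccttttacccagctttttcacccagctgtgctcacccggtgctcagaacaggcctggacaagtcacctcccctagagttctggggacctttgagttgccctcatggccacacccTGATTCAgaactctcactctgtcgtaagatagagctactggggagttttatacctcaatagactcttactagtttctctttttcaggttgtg
Tnfsf14, chr17:57194132-57194431, minus strand: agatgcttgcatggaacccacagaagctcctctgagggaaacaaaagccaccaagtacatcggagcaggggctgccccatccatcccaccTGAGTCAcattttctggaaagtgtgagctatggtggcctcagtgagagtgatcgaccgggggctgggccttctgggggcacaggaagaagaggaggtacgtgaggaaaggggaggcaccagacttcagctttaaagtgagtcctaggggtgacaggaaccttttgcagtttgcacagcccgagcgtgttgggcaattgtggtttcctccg
Tnfrsf8, chr4:145315115-145315414, minus strand: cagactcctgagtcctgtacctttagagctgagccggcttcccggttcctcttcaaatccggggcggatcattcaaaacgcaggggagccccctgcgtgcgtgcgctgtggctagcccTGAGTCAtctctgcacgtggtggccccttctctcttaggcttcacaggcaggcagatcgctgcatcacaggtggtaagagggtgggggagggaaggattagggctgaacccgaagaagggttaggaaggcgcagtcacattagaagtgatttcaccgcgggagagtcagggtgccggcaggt
Zeb2, chr2:45110228-45110527, minus strand: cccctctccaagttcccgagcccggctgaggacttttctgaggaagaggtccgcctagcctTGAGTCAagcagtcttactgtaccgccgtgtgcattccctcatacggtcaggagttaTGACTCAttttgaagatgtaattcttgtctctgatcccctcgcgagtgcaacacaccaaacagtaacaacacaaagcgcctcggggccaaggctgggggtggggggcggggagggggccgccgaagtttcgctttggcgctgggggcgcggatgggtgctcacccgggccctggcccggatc
Areg, chr5:91139349-91139648, plus strand: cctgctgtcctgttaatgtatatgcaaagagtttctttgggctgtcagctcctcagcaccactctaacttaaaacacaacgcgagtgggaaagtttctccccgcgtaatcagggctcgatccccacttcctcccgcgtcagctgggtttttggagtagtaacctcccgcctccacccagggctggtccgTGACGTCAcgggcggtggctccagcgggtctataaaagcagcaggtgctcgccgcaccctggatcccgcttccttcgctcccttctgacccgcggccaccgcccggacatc
Hk2, chr6:82774405-82774704, minus strand: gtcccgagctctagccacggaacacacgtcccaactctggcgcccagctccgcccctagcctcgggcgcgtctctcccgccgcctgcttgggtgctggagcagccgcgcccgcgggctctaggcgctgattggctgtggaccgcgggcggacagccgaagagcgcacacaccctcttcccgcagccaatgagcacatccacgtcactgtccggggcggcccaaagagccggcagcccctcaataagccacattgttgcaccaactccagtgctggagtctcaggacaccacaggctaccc
Nkg7, chr7:43436888-43437187, plus strand: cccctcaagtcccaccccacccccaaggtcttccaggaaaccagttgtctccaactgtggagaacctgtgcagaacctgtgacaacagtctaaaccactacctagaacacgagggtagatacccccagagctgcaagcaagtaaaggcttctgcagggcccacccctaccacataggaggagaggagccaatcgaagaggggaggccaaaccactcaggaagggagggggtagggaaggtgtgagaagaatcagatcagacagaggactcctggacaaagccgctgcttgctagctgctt
The AP-1 pattern began 15 bases before the start of Tnfrsf9 (the costimulatory receptor 4-1BB), 42 before Cd80 (a ligand of CD28 and CTLA-4), 160 before Tnfsf14 (the ligand LIGHT), 132 before Tnfrsf8 (CD30), and 189 and 132 before Zeb2, a zinc finger transcriptional repressor. The CRE pattern began 61 bases before the start of Areg, the growth factor amphiregulin. The windows of Hk2 (hexokinase 2, the first step of glycolysis) and Nkg7 (a protein of cytotoxic granules) held neither pattern.

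Across promoters, 90 of 794 windows over a member held the AP-1 pattern, or 11.3%, against 7.81% of all 32851 RefSeq windows and 5.70% of the 12464 windows over any site. Among 166 windows over sites that opened in WT but were lower in KO by at least 0.5, 67 held it, or 40.4%. The CRE pattern was in 2.64% of windows over members, 1.79% of all windows, 3.43% of those over any site and 3.61% of those over opened sites lower in KO. An ETS pattern, CCGGAA, was in 7.43% of windows over members and in 27.9% of windows over any site. Windows over opened sites lower in KO were like members, at 8.43%. The T-box pattern AGGTGTGA was in 18 windows over members, or 2.27%, and in 0.915% of those over any site. It was in 3.01% of windows over opened sites lower in KO, so neither share was particular to members. Patterns of RUNX, E2F, E-box, NF-kappaB, IRF and a CRE core were also searched, and their shares are not given here. Windows over members had a median GC content of 61.7%, close to the 61.3% of windows over any site, and those over opened sites lower in KO had 51.3%. No test was run on these shares.

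Members took up a small share of each naive library and a far larger share of each activated one. In naive WT libraries 0.891%, 0.961% and 1.02% of all counts in sites fell in members, and in naive KO libraries 1.01%, 1.18% and 1.18%. In activated WT libraries the shares were 15.1%, 15.2% and 15.1%, and in activated KO libraries 14.7%, 14.7% and 14.8%. The naive means were 1.13% ± 0.0966 in KO and 0.956% ± 0.0626 in WT (SD, n = 3 each). The lowest naive KO library lay below the highest naive WT library. Each naive KO library was above the naive WT library of the same number, but the labels do not pair libraries by number, and nothing is read from this order. No test is given, since the naive WT libraries entered the rule.

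**Figure D1:**
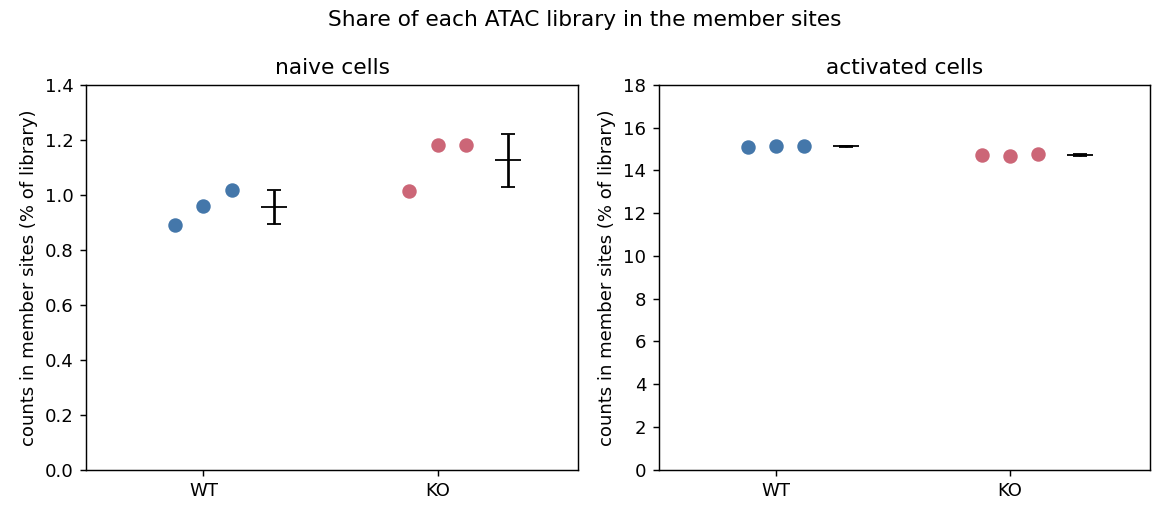
Counts in the 15660 member sites as a percentage of each ATAC library (vertical axis, from 0), for naive cells at left and activated cells at right. Points are libraries and bars are the mean with SD over 3 libraries. Naive libraries sit between 0.891% and 1.18% and activated libraries between 14.7% and 15.2%.

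The typical member went from near silence to a moderate peak. Its median level over members was 0.193 CPM in naive WT and 5.66 CPM in activated WT, and 0.241 and 5.58 CPM in naive and activated KO. At the top, 1800 members exceeded 20 CPM in activated WT, and at the bottom 3301 stayed under 3 CPM. A naive WT mean of at least 1 CPM was present in 2182 members, so 13.9% were already open to some degree before activation, and in 59 members all 3 naive WT libraries were at 0 counts. The activation difference in WT, which the rule used, had a median of 2.78 on the log2(CPM + 0.5) scale and a maximum of 6.95, and 2443 members reached 4.

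The largest opening was at chr11:79793793-79794193, inside the gene model 9130204K15Rik and 29677 bp from the nearest gene start. It stood at 0.0430, 0.0419 and 0.162 CPM in naive WT, at 0.308, 0.230 and 0.377 in naive KO, at 78.5, 70.0 and 66.0 in activated WT and at 60.4, 60.1 and 57.9 in activated KO. The site at chr8:107291131-107291531, 1904 bp outside Nfat5 (a factor of the NFAT family that responds to salt), had 107 to 115 CPM in activated WT and 87.2 to 95.7 in activated KO, after 0.252 to 1.13 in naive WT and 0.719 to 0.754 in naive KO. In both of these sites all activated KO libraries lay below all activated WT libraries while staying inside the rule's limit. A site within Prkg1, the gene of a cyclic GMP-dependent kinase, at chr19:30924121-30924521, went from 0 to 0.0839 CPM in naive WT to 49.8 to 54.1 in activated WT and 48.8 to 51.8 in activated KO, where the genotypes overlapped. The eighth in this order lay within Il2ra, at chr2:11691086-11691486, with 47.6 to 54.1 CPM in activated WT and 42.9 to 51.7 in activated KO.

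Apart from the site near Nfat5, the 8 members with the highest activated levels were already partly open in naive cells, at 4.69 CPM or more in each library. The member at chr17:31693355-31693755, with no RefSeq gene within 10 kb, had 133 CPM in each activated WT library and 99.7, 94.4 and 98.5 in activated KO. It had 25.8 to 28.0 CPM in naive WT and 15.9 to 19 in naive KO, so its KO libraries were below its WT libraries in both states (naive log2 fold change -0.59, adjusted p = 1.04e-05, edgeR). The member at chr8:126867630-126868030, within the gene model Gm31718, had 106 to 115 CPM in activated WT and 126 to 132 in activated KO. Its naive means were 17.0 CPM in WT and 20.9 in KO (log2 0.32, edgeR, adjusted p = 0.102, and 0.0361 with the replicate number as a block). The site within Rnf157 at chr11:116406347-116406747 had means of 103 and 108 CPM in activated WT and KO, and 21.0 and 20.2 in the naive states.

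In KO cells the same sites opened. The activated KO libraries had entered the rule and the naive KO libraries had not, so the naive KO level is the independent part of this comparison. With both, 13443 members, or 85.8%, passed 2 in the KO activation difference, whose median was 2.68, and 140 stayed under 1.5. All 3 activated KO libraries were above all 6 naive libraries at 15659 of 15660 members. The edgeR quasi-likelihood test called 15657 members higher in activated than in naive KO, against a background of 49.7% of all 110808 sites. In WT, the rule's own contrast, it called 15658, against 51.4% of all sites. The rule's limits left little room for any other outcome in these counts, so nothing is read from them. TMM scaling took 0.56 off every activated difference in WT and 0.61 in KO relative to plain CPM.

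**Figure D2:**
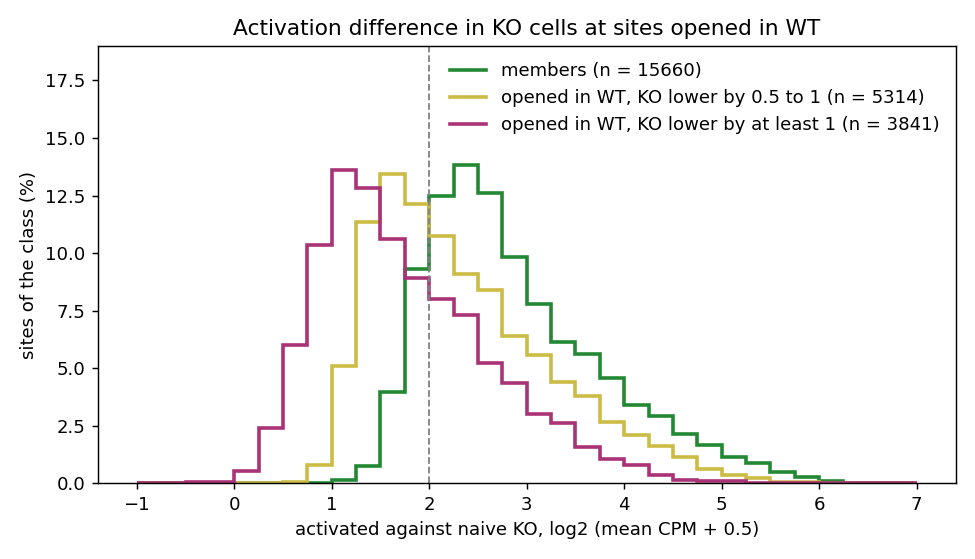
Activation difference in KO cells, log2(mean CPM + 0.5) of activated minus naive KO (horizontal axis), as a percentage of the sites of each class (vertical axis), for members and for the 2 classes of opened sites that were lower in activated KO. The dashed line marks 2, which 85.8% of members pass.

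Within the members, activated KO and WT differed little by construction, and not evenly. The difference lay within 0.25 in 9056 members, was lower in KO by 0.25 to 0.5 in 3973 and higher by 0.25 to 0.5 in 2631. Activated WT and KO libraries overlapped in 9266 members, or 59.2%. This share was not counted over all sites, and nothing is read from it, since the rule used these libraries. edgeR still called 867 members higher and 1861 lower in activated KO, against backgrounds of 10.9% and 17.6% of all sites, and nothing is read from these counts since the rule used this contrast. In the authors' deposited table the FDR was under 0.05 in 0 members, with a p-value under 0.05 in 54. Just inside the limit, at chr13:97395296-97395696, the means were 12.5 CPM in WT and 8.67 in KO, and just outside it, at chrX:42424023-42424423, they were 2.03 and 3.08. Just inside the opening limit, at chr16:10973040-10973440, WT went from 0.0323 to 1.63 CPM, and just outside, at chr19:16284001-16284401, from 0.115 to 1.96.

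Before activation, members were called more often as higher than as lower in KO. edgeR called 286 members higher and 7 lower in naive KO, which is 1.83% and 0.0447% of members, against backgrounds of 0.955% and 0.608% of all sites. Other opened sites leaned the same way. Those higher in activated KO had 3.14% called higher and 0% lower. Those lower by 0.5 to 1 had 0.358% and 0.132%, and those lower by at least 1 had 0.156% and 0.0781%. The median naive log2 fold change was 0.34 in members and 0.47, 0.31 and 0.27 in these classes, against 0.07 over all sites. The naive WT libraries entered the rule, which takes sites low in them, so these values are not independent of it. When the opening was measured in KO instead, 207 of 14862 sites were higher and 9 lower. Over both genotypes together 236 of 15161 were higher and 8 lower. Of these sites 13443 and 14489 were themselves members, so most of the sites behind these counts were the same. All 3 naive KO libraries were above all 3 naive WT libraries at 1939 members and below them at 180, against 10048 and 5454 of all sites. The total of 293 calls rested on single libraries. It was 94 without naive KO replicate 3, 136 and 160 without naive WT replicates 2 and 1, and 195 without activated WT replicate 2. Without any 1 activated KO library it was 182 to 192. It was 399 without naive WT replicate 3, which leaves the naive WT libraries with the most member sites at 0 counts. In the authors' deposited table the FDR was under 0.05 in 1 member, with a p-value under 0.05 in 682.

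The members called higher in naive KO had medians of 1.02 CPM in naive WT, 2.03 in naive KO, 18.8 in activated WT and 19.6 in activated KO. Over all members these were 0.193, 0.241, 5.66 and 5.58 CPM. A site with few counts can hardly pass the test, so nothing is read from the higher levels. Of these 286 members, 15 were on chromosome 3, which held 843 of all 15660 members. Another 5 were on chromosome 18 between 60 and 61 Mb, and that whole chromosome held 478 members. Nothing is read from these counts. The sites named next were chosen after their values were seen. At chr3:55461585-55461985 within Dclk1, the gene of a microtubule-binding kinase, naive WT had 1.59, 1.97 and 2.54 CPM and naive KO 6.47, 6.63 and 5.83. All KO libraries were above all WT libraries there (log2 1.67, edgeR, adjusted p = 2.01e-07). Activated levels at that site were 44.4 to 47.0 CPM in WT and 39.0 to 41.2 in KO. Within Lag3, an inhibitory receptor, the member at chr6:124907789-124908189 had 1.08 to 1.72 CPM in naive WT and 2.72 to 2.98 in naive KO (log2 0.97, edgeR, adjusted p = 0.00138).

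Members lay farther from gene starts than the average site, though nearer than opened sites that were lower in KO. Of members on chromosomes with promoter windows, 7.71% had their centre within 1 kb of a start, against 12.4% of all sites, 3.34% of opened sites lower in KO by 0.5 to 1 and 2.16% of those lower by at least 1. The median distance was 19367 bp for members and 17282 bp for all sites. Members overlapped the span of a RefSeq gene in 66.6% of cases and all sites in 69.6%. The annotation used gives gene spans only, so exons, introns and UTRs are not told apart. The share of sites that were members ran from 11.3% on chromosome 17 to 17.1% on chromosome 13.

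**Figure D3:**
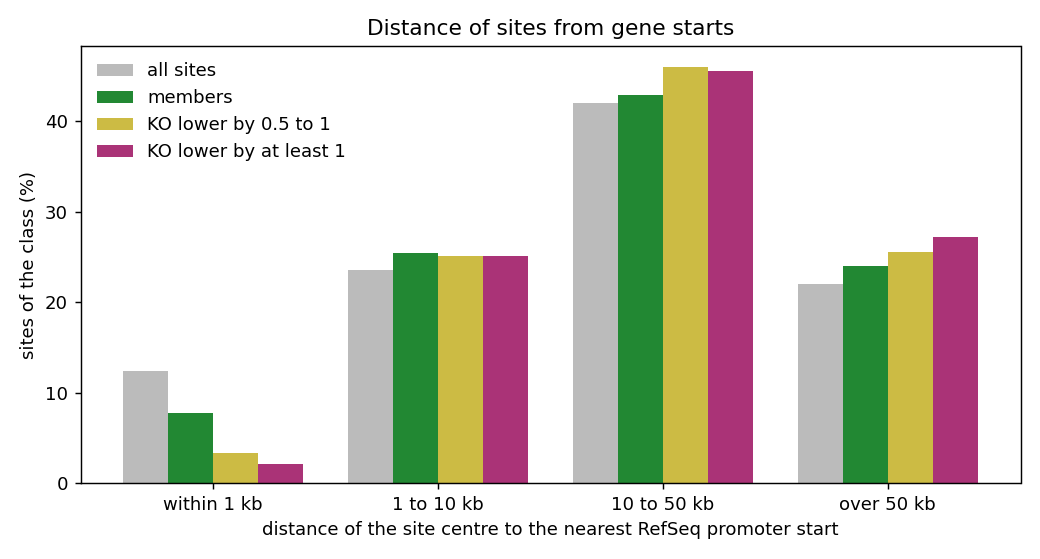
Distance of the site centre from the nearest RefSeq gene start (horizontal axis, 4 ranges) as a percentage of the sites of each class (bars, from 0), for all sites, members and the 2 classes of opened sites that were lower in activated KO. Within 1 kb the bars stand at 12.4%, 7.71%, 3.34% and 2.16% in that order.

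Some genes held many members. The median gap from a member to the next was 44468 bp and 21.1% of gaps were under 10 kb, against 6751.5 bp and 63.8% for all sites, which are more numerous. Within 100 kb, Hivep3 (a zinc finger regulator) held 14 members of 20 sites between chr4:119962671 and 120059755, Mdfic (a MyoD family inhibitor domain protein) 14 of 27, and Atxn1 13 of 24. Counting sites within 10 kb of the whole gene, Atxn1 had 29 members, Foxp1 27, Inpp4b 22, Kcnq5 20 and Hivep3 19. These are long genes, and the counts are not scaled to length. In RNA, Atxn1 (ataxin 1) had 73.1 to 79.1 CPM in activated WT and 76.8 to 79.7 in activated KO. Foxp1, a factor of quiescent T cells, had 226 to 272 and 242 to 261 CPM, and Kcnq5, a potassium channel, 30.7 to 36.2 and 31.9 to 34.0 CPM. The genotypes overlapped in these 3 genes. Inpp4b, a lipid phosphatase, did not overlap, with 86.1 to 93.8 CPM in WT and 104 to 109 in KO (log2 0.23, edgeR, adjusted p = 0.0228), a call lost without KO replicate 2 or 3 or WT replicate 1 or 2. Mdfic was lower in KO, at 165 to 169 CPM against 218 to 245 in WT (log2 -0.46, edgeR, adjusted p = 0.000782). Hivep3 had 185 to 247 CPM in WT and 271 to 289 in KO (log2 0.33, edgeR, adjusted p = 0.0581, and 0.0434 with the replicate number as a block).

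The next comparison set the RNA of effector genes beside the sites near them. Of 30 core genes of the Th1 and effector programme, 24 had a member within 10 kb, 61 members in all, and 22 of these genes could be tested in RNA. Over all tested genes, 4942 of 11980 had a member. In activated KO, 12 were lower, 2 were higher and 8 did not pass the test, against backgrounds of 9.04% lower and 5.89% higher among all 11980 tested genes. Their median log2 fold change was -0.49, against 0.01 over all tested genes. The rule holds members within 0.5 between activated genotypes, so like member sites beside unlike RNA were fixed in advance on the site side. Of the 24 genes, only 9 had no other opened site. The 6 core genes without a member are not covered by these counts. The core list was chosen for this biology with results of these data known, and bulk RNA cannot tell fewer cells of a type from less RNA per cell.

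**Figure D4:**
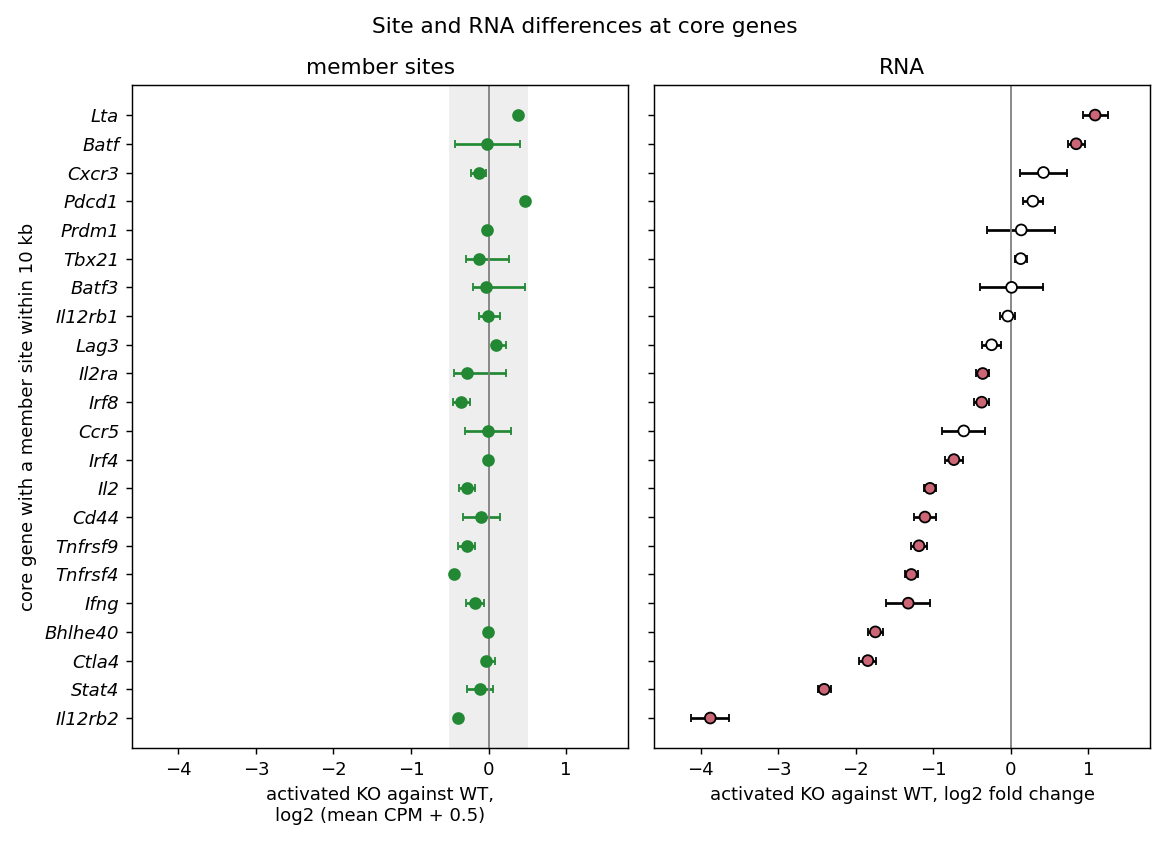
Activated KO against WT at the 22 tested core genes with a member within 10 kb. At left, log2(mean CPM + 0.5) differences of the members (point, median; bar, lowest to highest; shading, the rule's limit of 0.5). At right, RNA log2 fold changes with SE, filled where the adjusted p was under 0.05. The RNA values run from -3.88 for Il12rb2 to 1.09 for Lta. Other opened sites near these genes are not shown.

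Bhlhe40, a transcription factor that sustains cytokine production, had a member among the most accessible of the core genes. Its member at chr6:108660180-108660580, 49 bp outside the gene and within the span of 0610040F04Rik, had 94.9, 94.3 and 102 CPM in activated WT and 95.2, 98.3 and 94.9 in activated KO, and 8.33 to 9.39 CPM across the 6 naive libraries. The genotypes overlapped in both states. Its RNA stood at 487, 382 and 413 CPM in activated WT and 130, 121 and 131 CPM in activated KO, with no overlap (log2 -1.75 ± 0.10, SE, edgeR, adjusted p = 2.75e-09). Bhlhe40 also had 2 sites that opened in WT and were lower in KO by at least 1.

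Genes of the IL-12 and interferon pathway differed among themselves. Stat4, the transcription factor that IL-12 activates, had 4 members beside 4 opened sites lower in KO. The strongest member, at chr1:52066325-52066725 within the gene, had 41.2, 38.3 and 38.2 CPM in activated WT and 35.9, 37.9 and 35.7 in activated KO. The highest KO library was just below the lowest WT library. Stat4 RNA had 255, 235 and 272 CPM in activated WT and 48.2, 45.0 and 50.3 in activated KO (log2 -2.41 ± 0.08, edgeR, adjusted p = 1.20e-12). Il12rb2, the inducible chain of the IL-12 receptor, had 1 member at 2.84 CPM in activated WT and 2.03 in KO, beside 3 opened sites lower in KO by at least 1, 1 lower by 0.5 to 1 and 1 higher, and its RNA means were 77.9 and 5.29 CPM. Il12rb1, the shared chain, had 3 members and no other opened site, and its RNA of 218 to 249 CPM in WT overlapped the 206 to 242 CPM of KO.

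Ifng encodes interferon gamma, the Th1 effector cytokine, and had 2 members and no other opened site. The member within the gene, chr10:118442944-118443344, had 7.27, 6.95 and 6.13 CPM in activated WT and 6.65, 6.35 and 6.52 in activated KO. The member 5174 bp away, chr10:118435472-118435872, had 6.28, 5.41 and 5.40 CPM in activated WT and 4.40, 5.29 and 4.00 in activated KO. The first overlapped between genotypes and the other did not. Ifng RNA was at 0 counts in all 6 naive libraries and at 30.1, 14.7 and 17.0 CPM in activated WT and 10.004, 6.82 and 7.78 in activated KO. That is at least 189-fold higher in activated than naive WT and at least 72.1-fold in KO, against a floor of 3 counts over the naive group. The genotype difference (log2 -1.32 ± 0.29, edgeR, adjusted p = 0.0158) did not pass without KO replicate 2 or 3, or without the filter on low counts, and its adjusted p ranged from 3.90e-05 to 0.0785 over all settings.

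Tbx21 encodes T-bet, the master regulator of Th1 cells, and had 6 members, 1 opened site lower in KO and 1 higher. Its strongest member, chr11:97124666-97125066, lies 9335 bp outside the gene and had 23.3, 23.0 and 20.8 CPM in activated WT and 23.3, 19.5 and 18 in activated KO. Tbx21 RNA was 116, 127 and 127 CPM in WT and 126, 139 and 138 in KO (log2 0.13 ± 0.08, adjusted p = 0.298 in edgeR). Both site and RNA overlapped between the genotypes.

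Among receptors, Il2ra (CD25, the high-affinity chain of the IL-2 receptor) had 7 members and no other opened site. Its RNA was 886, 756 and 762 CPM in activated WT and 653, 609 and 607 in activated KO, lower in KO with no overlap (log2 -0.36 ± 0.09, edgeR, adjusted p = 0.0083). Ctla4, an inhibitory receptor that binds CD80 and CD86, had 3 members and 1 site lower in KO by 0.5 to 1. Its member at chr1:60902618-60903018, 6007 bp outside the gene, had 19.2, 22.9 and 20.1 CPM in WT and 22.6, 22.9 and 20.4 in KO, so the groups overlapped. Its RNA was 135, 147 and 141 CPM in WT and 34.3, 43.2 and 40.3 in KO (log2 -1.84 ± 0.11, edgeR, adjusted p = 2.08e-09). Lag3 had 3 members and no other opened site, with mean RNA of 107 CPM in WT and 89.8 in KO (log2 -0.25, edgeR, adjusted p = 0.187, and 0.0420 with the replicate number as a block). Pdcd1 (PD-1) had 1 member and mean RNA of 122 and 149 CPM (log2 0.28, edgeR, adjusted p = 0.163, and 0.0166 with the block).

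Among cytokines, Il2 had 2 members, the stronger at chr3:37128267-37128667, 2313 bp outside the gene. That member had 52.8, 48.2 and 47.0 CPM in activated WT and 38.9, 37.9 and 36.6 in activated KO, lower in KO within the rule's limit. Il2 RNA was 272, 301 and 322 CPM in WT and 142, 150 and 142 in KO (log2 -1.04 ± 0.08, edgeR, adjusted p = 3.05e-08). Lta (lymphotoxin alpha) went the other way. Its member at chr17:35215063-35215463, 9485 bp outside the gene, had 20.3, 16.4 and 12.6 CPM in WT and 24.0, 21.5 and 18.8 in KO, which overlapped, and its RNA had 194, 125 and 135 CPM in WT and 383, 295 and 286 in KO (log2 1.09 ± 0.16, edgeR, adjusted p = 0.00077).

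The RNA of the genes whose promoters are printed above varied in direction. The Cd80 member, chr16:38458649-38459049, had 48.5, 48.3 and 50.8 CPM in activated WT and 51.1, 48.7 and 52.7 in KO, and Cd80 RNA had 19.5, 11.6 and 14.5 CPM in WT and 8.27, 7.28 and 8.62 in KO (log2 -0.92 ± 0.20, edgeR, adjusted p = 0.00545). The Nkg7 member, chr7:43436769-43437169, had 29.5, 31.1 and 31.6 CPM in WT and 32.4, 32.0 and 27.9 in KO, and Nkg7 RNA overlapped too, at 46.2, 51.2 and 60.9 against 55.4, 58.4 and 46.7 CPM. The Areg member, chr5:91139335-91139735, over the window with the CRE pattern, had 9.52, 11.5 and 10.8 CPM in activated WT and 8.30, 9.21 and 8.47 in KO. Areg RNA was 3.64, 5.01 and 4.94 CPM in WT and 0.158, 0.738 and 0.371 in KO (log2 -3.43 ± 0.39, edgeR, adjusted p = 3.86e-05), with 0 counts in all naive libraries. Thus Cd80 and Areg RNA was lower in KO and Nkg7 RNA overlapped between genotypes. Zeb2 RNA was lower in KO, with means of 27.8 and 11.97 CPM, and so was Hk2 RNA, with 260 and 168 CPM, while Tnfsf14 RNA was higher, with 32.9 and 52.7 CPM (edgeR, adjusted p = 8.03e-06, 0.0001 and 0.000609). Tnfrsf9 RNA was lower in KO, at 345 and 152 CPM (log2 -1.18, edgeR, adjusted p = 1.98e-06), and Tnfrsf8 had 1.93 and 2.33 CPM (log2 0.27, edgeR, adjusted p = 0.572).

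Pathway lists describe a wider set of genes, and examples outside the core list were chosen after their values were seen. Over all genes matched to RefSeq, 8028 of 23898 had a member within 10 kb, and over all tested genes 4942 of 11980. The numbers of genes with a member, here and in the next lists, stand against these shares. Of 24 measured genes of T cell activation and costimulation, 20 had a member. Of the 19 tested, 17 were higher in activated than naive WT, against a background of 42.3% of all tested genes, and 9 were lower in activated KO, with none higher (median log2 -0.31). Among 30 cytokines and chemokines 22 had a member, and of 15 tested all 15 rose with activation, 9 were lower in KO and 3 higher (median -0.70). These counts and those of the next lists stand against backgrounds of 42.3% rising with activation in WT, 40.3% falling, 9.04% lower in activated KO and 5.89% higher. A gene silent in naive cells, such as Ifng, passed the filter on low counts only by its activated level. Its rise was thus built in, and the counts of rises in these lists are not read against the 42.3%. With or without a member, 11 of 21 tested cytokines and chemokines were lower and 4 higher. Csf2 (GM-CSF) had 27.0 and 4.20 CPM in activated WT and KO, Fasl 25.1 and 14.9, and Ccl22, among the higher ones, 1.13 and 5.03. Of 32 receptors 20 had a member, and 5 of 18 tested were lower and 4 higher in KO (11 and 5 of 30 tested on the whole list). Of 46 transcription factors 29 had a member and were tested, of which 15 were lower and 4 higher in KO (median -0.39), and on the whole list 22 of 46 tested were lower and 7 higher. Nr4a2, Hif1a and Runx3 were among the lower ones, at 175 against 37.1, 315 against 112 and 110 against 47.7 CPM.

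The cyclic AMP list had the lowest median of the pathway lists. Of 29 measured cAMP-CREB targets 13 had a member, 11 of 12 tested were lower in activated KO and none was higher (median -1.57), against a background of 9.04% lower. The whole list was alike, with 22 of 28 tested genes lower, 1 higher and a median of -1.45. Crem, a CREB family member, had 59.1 CPM in activated WT and 8.12 in KO, and Pde4d, a phosphodiesterase, 66.1 and 6.17. Of 35 cell cycle and DNA replication genes 14 had a member, and 11 of 13 tested rose with activation in WT. By edgeR, 0 of the 13 were called in activated KO against WT, with 3 at an unadjusted p under 0.05 and 1 call by DESeq2, and log2 values from -0.24 to 0.15. Of 24 genes of glycolysis and nutrient transport 14 had a member, and 9 of these were lower in KO (median -0.30, with 14 of 24 on the whole list), Slc16a3 (a lactate exporter) most, at 262 against 118 CPM. Of 22 genes of naive cells 7 had a member, of which 6 fell with activation in WT. Of 14 cytotoxic granule genes 4 had a member and 2 were tested, Nkg7 and Serpinb9, and Serpinb9 was lower in KO at 84.6 against 252 CPM.

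Genes were then grouped by all the sites near them. Of 4942 tested genes with a member within 10 kb, 353 were higher and 624 lower, or 7.14% and 12.6%, against backgrounds of 5.89% and 9.04%. Of the 2661 whose members were their only opened sites, 6.54% were higher and 8.08% lower, near the background. Without any 1 activated library, 104 to 132 of these genes were higher and 133 to 172 lower, against 174 and 215 with all libraries, with 104 and 133 without KO replicate 3. The background without that library was 3.51% higher and 5.95% lower, and the class stood at 3.87% and 4.95%. Of the 1006 with both a member and an opened site lower in KO by at least 1, 5.67% were higher and 23.4% lower. Of the 562 with such a lower site and no member, 4.09% and 20.3%, and of the 5093 with sites but none opened, 4.69% and 4.87%. The rule fixes neither of these RNA values, and the classes were not tested against each other. Upper-quartile scaling moved the split for genes with a member to 472 higher and 497 lower. It moved that for members alone to 254 higher and 158 lower from 174 and 215. Over all tested genes the same scaling gave 987 higher and 843 lower, from 706 and 1083. The background under it was 8.24% higher and 7.04% lower, and members alone stood at 9.55% and 5.94%.

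**Figure D5:**
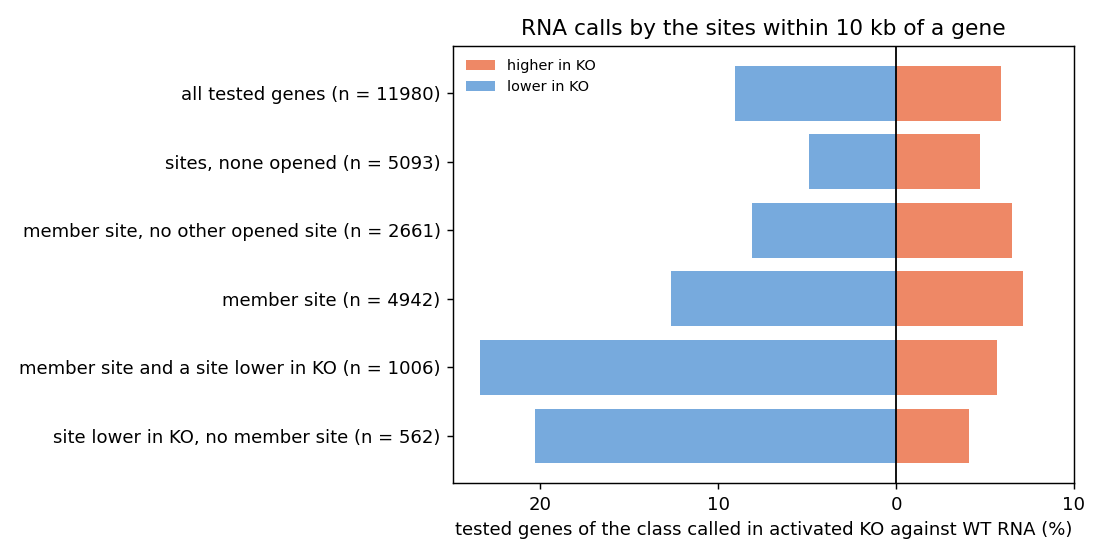
Percentage of tested genes called higher (right) or lower (left) in activated KO against WT RNA by edgeR at an adjusted p under 0.05, for 6 classes of genes by the sites within 10 kb of them. Genes whose only opened sites are members stand at 6.54% higher and 8.08% lower, and genes with both a member and a site lower in KO at 5.67% and 23.4%.

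The number of members moved with the share called. Genes with 1 member were lower in activated KO in 9.48% of 2890 cases, those with 2 to 4 in 16.3% of 1734, and those with 5 or more in 21.1% of 318, and higher in 6.40%, 8.13% and 8.49%. Gene length and nearby sites lower in KO were not held apart here.

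The RNA of genes with a member was compared between activated and naive cells. Of genes with a member, 2263 rose and 1924 fell in WT, or 45.8% and 38.9%, against backgrounds of 42.3% and 40.3%. In KO 2224 rose and 1929 fell, or 45.0% and 39.0%, against backgrounds of 42.3% and 39.8%. Where the member lay over the promoter window, 147 of 186 tested genes rose in WT, or 79.0%, and 32 fell, with the same counts in KO. Of 592 such genes in the table only these 186 passed the filter on low counts, and a gene silent in naive cells passed only by its activated level. Among the 63 with at least 1 CPM in naive WT, 26 rose and 32 fell, or 41.3% and 50.8%, close to the 37.2% and 44.8% of all 10721 tested genes at that level.

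The largest RNA rises in WT among named genes with a member included Ifitm2, Fads2, Cth and Dnah7a, all at 0 counts in naive WT. Ifitm2 (an interferon-induced membrane protein) reached a mean of 122 CPM in activated WT and 123 in KO, at least 1118-fold above the floor in WT. Fads2 (a fatty acid desaturase) was at least 623-fold, Cth (the transsulfuration enzyme cystathionine gamma-lyase) at least 531-fold and Dnah7a (a dynein heavy chain) at least 498-fold above it. In activated KO against WT, Ifitm2 and Cth did not pass the test, Dnah7a was higher (54.2 against 75.4 CPM in KO, edgeR, adjusted p = 0.00279), and Fads2 was higher with a call that 4 of the settings without 1 library lost. The chemokines Ccl3 and Ccl4 rose to 106 CPM each in WT. In activated KO Ccl4 was at 50.5 CPM (log2 -1.08, edgeR, adjusted p = 4.91e-07) and Ccl3 at 82.0, a call lost without any 1 of 5 activated libraries.

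Among genes with a member, those with the largest fall in activated KO included Ntrk3, Cacna1s and Prkaca itself, none of which had another opened site. Ntrk3 (a neurotrophin receptor kinase) had 17.8, 16.2 and 20.7 CPM in activated WT and 0, 0.369 and 0.926 in KO, with 2 members. Cacna1s (a voltage-gated calcium channel) had 13.1, 9.02 and 11.8 CPM in WT and 0.945, 0.645 and 0.463 in KO, with 1. No library overlapped in either. Zdbf2, Nid1, Penk, Il12rb2 and Slc1a2 were the others, each with at least 1 opened site lower in KO by at least 1 besides. Those with the largest rise were Slc30a3, Wnt3, H2-Aa, Olfml2a, Col27a1, Ccl22, Kifc3 and Ces2c, with mean levels of 5.03 to 15.3 CPM in KO and 0.568 to 3.16 in WT. H2-Aa, an MHC class II gene also made by B cells, had 1.17 to 2.82 CPM in WT and 8.35 to 12.2 in KO. B cell markers moved the same way (103 to 127 CPM in activated WT, 161 to 189 in KO), and their part in these values was not tested. The Ces2c call was lost without KO replicate 2 or 3 or WT replicate 3.

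Few genotype differences were called before activation. In naive cells 6 tested genes with a member were higher in KO and 6 lower, against backgrounds of 0.125% and 0.117% (edgeR, with 277 of the 4942 at an unadjusted p under 0.05). DESeq2 called 21 higher and 8 lower, and edgeR without the filter on low counts called 14 and 6. The test of the difference between states (interaction) was passed by 66 genes with a member in the higher direction and 180 in the lower, or 1.34% and 3.64%, against backgrounds of 1.18% and 2.52%. Upper-quartile scaling gave 91 and 156. Where members were the only opened sites, 0.939% and 1.58% passed. In forskolin-treated cells, which were not activated, 1067 genes with a member were higher in KO and 920 lower, or 23.1% and 19.95%, against backgrounds of 19.7% and 18.8%.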

How the data were processed

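The deposited ATAC-seq tables give whole-number counts per site for naive and for activated cells, and the deposited RNA-seq tables give counts per gene. The deposited ATAC tables also hold the authors' log2 fold changes and the authors' p-values and FDR. The build was mm10 per the submitters' processing notes, and the aligner and peak caller are not given in the sources used here. The 2 ATAC tables were joined by coordinates into 110808 sites. CPM for the rule was the count over the library's total in sites, and RNA levels were CPM scaled by TMM. Tests used edgeR 4.0.16 (quasi-likelihood, robust, TMM, R 4.3.3) on the deposited counts with Benjamini-Hochberg adjustment over all sites or genes at 0.05, 1 fit over the 12 naive and activated libraries of each assay, and a separate fit for forskolin. RNA genes passed filterByExpr, sites had no filter. Of 27179 RNA features 1314 had no symbol (0.128 to 0.159% of counts) and were left out. Of the RNA symbols 23898 matched RefSeq spans (GRCm38.p6), and a gene had a member if the site lay within 10 kb of its span. Scripts were tested on simulated data.

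Members and lists were chosen with earlier results of these data known. Named sites were the 8 members with the largest opening, the 8 with the highest activated mean, up to 3 of the strongest members per core gene, and promoter members of core or list genes. Named genes were the core genes with a member, the 10 with the most members, and, at 5 CPM or more in the higher group, the 8 with the largest RNA difference each way in activated KO against WT that passed without overlap and the 8 with the largest RNA rise in WT. Others were named after their values were seen. The markers of CD4 T, B, CD8 T and NK, monocyte, macrophage and dendritic, and erythroid cells were summed.

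Same-numbered libraries deviated together in activated KO and WT (correlation of deviations 0.104 to 0.348 in ATAC, 0.294 to 0.623 in RNA), in naive ATAC (0.103 to 0.252), in RNA of both activations (0.121 to 0.411) and in forskolin (0.171 to 0.392), but not in every pair of naive RNA (-0.0183 to 0.500) or of ATAC activation (0.0439 to 0.185). Differently numbered libraries could deviate together as much. In activated RNA, KO 2 correlated at 0.332 with WT 3 and 0.328 with WT 2, and in activated ATAC at 0.108 and 0.104. Activated KO 1 was negative against WT 2 and WT 3 in both assays. The check thus sets number 1 apart in activated cells but does not match 2 with 2 or 3 with 3. The pairing in the replicate block rests on this check and not on the labels. Chi-square per degree of freedom between replicates was 1.15 to 19.1, and no libraries were treated as duplicates. Alternatives were other scalings, filters, limits, DESeq2 1.42.0, a replicate block and leaving out each library. Those added after the data were seen were the opening measured in KO or over both genotypes, and the authors' FDR.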

Additional observations from a re-analysis of the deposited data

Results flagged for a closer look

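At 11 of the named genes with a member, the RNA difference between KO and WT differed between activated and naive cells by the interaction test in edgeR. Values are the log2 difference in activated cells minus that in naive cells, with SE. No explanation was tested.

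Among core genes, Stat4 had -2.23 ± 0.11 (adjusted p = 1.49e-09), Ctla4 -1.92 ± 0.28 (adjusted p = 0.000432), and Il12rb2 -3.38 ± 0.71 (adjusted p = 0.0177). The costimulatory receptors Tnfrsf9 and Tnfrsf4 had -1.64 ± 0.22 (adjusted p = 0.000411) and -1.18 ± 0.18 (adjusted p = 0.000556), and the transcription factor Irf4 had -1.21 ± 0.22 (adjusted p = 0.00567). In all 6 genes the naive difference did not pass the test.

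Ntrk3 had -5.27 ± 0.43 (adjusted p = 3.02e-06), with like RNA in naive WT and KO (means 18.1 and 16.1 CPM). Prkaca had -1.58 ± 0.29 (adjusted p = 0.00286), being lower in KO in both states. Kifc3 had 2.29 ± 0.45 (adjusted p = 0.00608), Olfml2a 4.47 ± 1.00 (adjusted p = 0.0148, from naive levels of at most 0.266 CPM), and Inpp4b 0.34 ± 0.09 (adjusted p = 0.0394).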

How the results depend on the processing

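The number of members was set by the rule's limits: 10241 with a pseudocount of 1, 24513 and 6404 with an opening of at least 1.5 and 3, 9056 with a difference under 0.25, 11454 with TMM scaling (11298 shared), and 15049 to 16711 without any 1 library. Naive ATAC calls at members numbered 293, with 114 at an FDR of 0.01, 1 by the authors' deposited FDR and 94 to 399 without any 1 library. Calls for KO activation ran from 15653 to 15658 without any 1 library. RNA calls at genes with a member within 50 kb were 7043 for WT activation (from 4187), 7027 for KO activation (from 4153), 25 for naive KO against WT (from 12) and 3288 for forskolin (from 1987). At an FDR of 0.01 they were 564 for activated KO against WT (from 977), 129 for the interaction (from 246) and 7 for naive cells. Naive RNA calls were 20 without the filter on low counts and 29 by DESeq2. Without any 1 library, RNA calls ran from 4111 to 4258 (WT activation), 4040 to 4224 (KO activation), 652 to 1086 (activated KO against WT), 175 to 259 (interaction), 5 to 20 (naive, with 5 without naive WT replicate 2, 6 without naive KO replicate 1 or 3, and 20 without activated WT replicate 1) and 1752 to 1863 (forskolin). The replicate block gave 347 naive ATAC calls, and in RNA 1125 for activated KO against WT, 323 for the interaction, 15 for naive cells and 2101 for forskolin, and moved no count by more than 1.5 times. Of 41 named genes called in activated KO against WT RNA, 35 kept the call in every setting and 6 lost it in some (Ccl3, Ces2c, Fads2, Ifng, Inpp4b and Irf8). Some of these genes were named for large differences that passed this test without overlap. The share that kept the call thus does not describe RNA calls at large. Depth limits fold changes of genes at 0 counts in naive RNA, where 3 counts over the naive WT libraries equal 0.109 CPM.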

Other observations

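Some members lay over transfer RNA genes, a set chosen after its values were seen. Of 146 sites over a tRNA gene 45 were members, or 30.8%, against 14.1% of all sites, and 35 of these lay on chromosome 13 between 21215321 and 23498364. Only 1 of the 146 opened and was lower in KO by at least 0.5, and 0 opened and were higher. Of all sites, 4.80% opened and were lower by 0.5 to 1, 3.47% opened and were lower by at least 1, and 1.95% opened and were higher. The median level of these 45 members per library was 0.215 to 0.486 CPM in naive WT and 0.257 to 0.460 in naive KO. It was 9.24 to 12.04 in activated WT and 8.44 to 12.1 in activated KO. The genotypes overlapped in both states, but in activated cells the rule had already held them alike. Many tRNA genes have near-identical copies, and how reads were shared among them is not given in the sources used here.

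In forskolin-treated cells several core genes differed between KO and WT. Il2ra (log2 2.58 ± 0.10, SE, edgeR, adjusted p = 1.56e-08) and Lta (1.26 ± 0.10, adjusted p = 1.56e-11) were higher in KO, and Il12rb1 was higher too (2.58 ± 0.41, adjusted p = 6.75e-06). Stat4 (-1.86 ± 0.06, adjusted p = 2.72e-21), Ctla4 (-2.44 ± 0.15, adjusted p = 2.06e-13), Il12rb2 (-2.10 ± 0.19, adjusted p = 3.97e-10) and Cd44 (-1.24 ± 0.13, adjusted p = 3.17e-09) were lower. Il2ra was lower in activated KO and higher in forskolin-treated KO, in separate tables and fits, and that difference was not tested. B cell markers summed to 171 to 193 CPM in forskolin WT and 325 to 336 in forskolin KO, and CD4 T cell markers to 3020 to 3099 and 2449 to 2546, and their part in these values was not tested.

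Beside the B cell markers given above, CD8 T and NK cell markers summed to 19.5 to 62.1 CPM in activated WT and 20.1 to 47.0 in activated KO, monocyte, macrophage and dendritic cell markers to 0.260 to 0.449 and 0.473 to 1.20, and erythroid markers to 0.434 to 0.718 and 0.0788 to 0.369.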
